A study of Mus musculus with 16 samples.

Results

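The C1q-like proteins and the cerebellins are 2 small families of secreted proteins with a C1q domain that neurons release into the synaptic cleft. Their members *C1ql1*, *C1ql2*, *C1ql3*, *Cbln1*, *Cbln2* and *Cbln4*, 6 of the 32285 genes counted in each library, were followed by symbol through the RNA of every library. They were selected on their RNA levels across the cell classes of these libraries, so levels by class are given below as a description with no test.

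Single nuclei came from frozen, microdissected dentate gyrus (DG) of 8 mice, 4 wild-type (WT, genotype VV) and 4 homozygous for the V321L missense allele of *Nrg1* (genotype LL). *Nrg1* encodes neuregulin 1, a ligand of ErbB receptors. Each genotype had 2 females (F1 and F2) and 2 males (M1 and M2), with 1 library per mouse that holds the RNA and the accessible chromatin (ATAC) of the same nuclei. The age of these mice was not given in the sources used here, the labels name no treatment, and the allele was present in all cells, so a difference that arises within a cell class and 1 that comes from its neighbours cannot be told apart. WT libraries held 4326426 to 14624265 RNA unique molecular identifiers (UMIs) and V321L libraries 15505354 to 23582057, and the 16406 nuclei kept fell into 14 classes named from their marker genes.

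In the hippocampus, C1ql2 and C1ql3 are made by DG granule cells (GCs) and released from the mossy fibre terminals that these cells send to CA3, where they bridge presynaptic neurexins to postsynaptic kainate receptors. C1q-like proteins also bind the adhesion receptor encoded by *Adgrb3*. Cerebellins join neurexins to delta glutamate receptors such as that encoded by *Grid1*, and Cbln4 also binds the netrin receptors encoded by *Dcc* and *Neo1*.

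The promoter of *C1ql2* is shown because the gene differed most between genotypes in GCs and its accessibility was measured in the same nuclei. That of *Cbln4* is the other member promoter in the sequence table that a peak overlapped. Both windows run from 250 bases before to 50 bases after the gene start (RefSeq, GRCm38.p6), at chr1:120340332-120340631 on the + strand for *C1ql2* and chr2:172043417-172043716 on the - strand for *Cbln4*. Capitals mark a CCAAT box, a GC box (letters GGGCGG) or an E-box (letters CANNTG) on either strand.
C1ql2: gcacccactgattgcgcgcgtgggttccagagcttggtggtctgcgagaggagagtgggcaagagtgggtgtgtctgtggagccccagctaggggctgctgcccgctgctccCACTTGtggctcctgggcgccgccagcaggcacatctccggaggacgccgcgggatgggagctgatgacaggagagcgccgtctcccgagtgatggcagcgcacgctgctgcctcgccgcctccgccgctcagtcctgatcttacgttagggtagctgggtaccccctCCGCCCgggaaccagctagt
Cbln4: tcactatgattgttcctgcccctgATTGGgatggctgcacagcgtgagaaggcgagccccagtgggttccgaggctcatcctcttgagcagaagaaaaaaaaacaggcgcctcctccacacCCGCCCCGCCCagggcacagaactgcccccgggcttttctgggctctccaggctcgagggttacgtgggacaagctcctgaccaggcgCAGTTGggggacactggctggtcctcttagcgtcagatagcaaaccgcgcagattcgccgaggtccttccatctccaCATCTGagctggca

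The *C1ql2* window was 67.3% GC with 23 CpG pairs, against medians of 52.7% and 7 over 32851 promoters of the same length. It held 1 GGGCGG (found in 35.7% of all promoters) and 1 CANNTG (72.3%), and neither TATAAA (13.6%) nor CCAAT (37.4%). The *Cbln4* window was 60.3% GC with 15 CpG pairs and held 1 CCAAT, 2 GGGCGG that share 1 base, and 2 CANNTG. All motifs were searched on both strands, and a match is a description of the letters and not a bound site. An ATAC peak lay over the *C1ql2* window in 8 of 8 libraries and over that of *Cbln4* in 1. The *C1ql3* window was 141 bases from the nearest peak. The promoter table used held no entry for *C1ql1*, *Cbln1* or *Cbln2*, and peaks within 1 kb of their starts were called in 4, 8 and 8 libraries.

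GCs made up 10722 of the nuclei (6587 WT and 4135 V321L) in 5 clusters. Of 8 GC markers, 5 were highest in the GC class in WT and 7 in V321L nuclei, and *Prox1*, the transcription factor of the granule lineage, was higher in immature granule neurons in both. The genotypes mostly occupied different GC clusters, and 3285 V321L nuclei shared cluster 0 with only 21 WT nuclei. Median UMIs per GC were 1036 to 1919 in WT and 3136.5 to 4650 in V321L mice, the mitochondrial share was 0.0588% to 0.130% and 0.299% to 1.08%, and the share of ribosomal protein genes was 0.0988% to 0.161% and 0.874% to 1.80%. These ranges did not overlap between genotypes and move with every genotype difference given here, and their part in it was not tested. The labels give no preparation dates, so a batch of libraries cannot be told apart from genotype in any comparison below.

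Of the members, *C1ql3* was the most abundant in WT GCs. Its level, in UMIs per 1000000 UMIs of the class (CPM), was 222.8 in F1, 139.2 in F2, 207.3 in M1 and 214.6 in M2 of the WT mice, with a mean of 196 ± 38.4 (SD, n = 4). *C1ql2* was much lower, at 25.0 in F1, 13.8 in F2, 36.9 in M1 and 19.5 in M2, with a mean of 23.8 ± 9.86. *C1ql3* was above *C1ql2* in 4 of 4 WT mice, by a wide margin. The other 4 members were close to absent from WT GCs, with 2 UMIs of *Cbln1* and none of *C1ql1*, *Cbln2* or *Cbln4* in 6587 nuclei, and a count of 0 allows up to 0.2335 CPM (3 counts of the class total). This limit, like the other counts, covers counting error only.

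**Figure D1:**
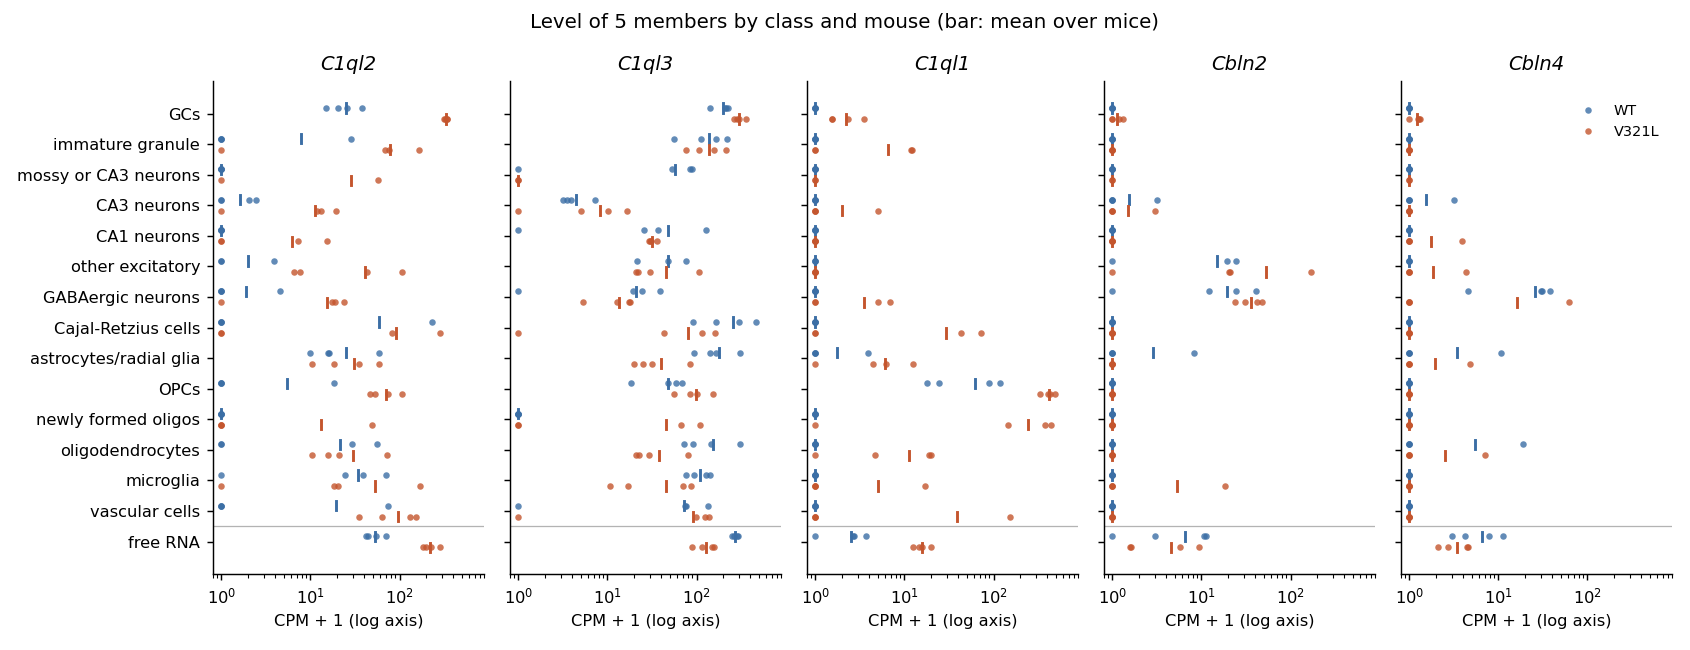
Levels of 5 members in each class and in free RNA, as CPM + 1 on a log axis, with 1 point per mouse (blue WT, orange V321L) and a bar at the mean. *C1ql2* separates the genotypes in GCs (23.8 against 330 CPM), *C1ql1* sits in oligodendrocyte precursor cells (OPCs) and newly formed oligodendrocytes, *Cbln4* in GABAergic neurons, and *Cbln2* in GABAergic neurons and other excitatory neurons.

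Across the WT classes, *C1ql3* in GCs overlapped with 3 glial classes and lay above OPCs. The mean was 255 ± 165 CPM in Cajal-Retzius cells (9 UMIs in 30 nuclei), 196 ± 38.4 in GCs, 177 ± 91.2 in the class of astrocytes or radial glia, 153 ± 107 in oligodendrocytes, 138 ± 71.2 in immature granule neurons and 109 ± 29.7 in microglia, and neighbours in this order differed by less than the larger of their SDs. WT OPCs were lower, at 47.4 ± 21.6 CPM with no mouse above 67.3, and the 11 WT newly formed oligodendrocytes had no *C1ql3* UMI. *C1ql2* in WT nuclei was likewise at 24.2 ± 22.9 CPM in astrocytes or radial glia and 32.8 ± 29.3 in microglia, against 23.8 ± 9.86 in GCs, and its highest class mean, 58.2 ± 116 in Cajal-Retzius cells, was 1 UMI. Neurons of other fields were lower. In CA3 neurons *C1ql3* was at 3.44 ± 1.88 CPM and *C1ql2* at 0.618 ± 0.732 CPM.

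GC markers were also present in the glial classes. In WT nuclei the 8 GC markers stood at a median of 58.6% of their GC level in astrocytes or radial glia, 57.4% in oligodendrocytes and 73.4% in microglia, and at 3.55% in CA3 neurons. *C1ql2* and *C1ql3* were at 87.6% and 83.0% of their GC level in WT astrocytes or radial glia. Both were above all 8 GC markers there, which ran from 20.7% (*Plk5*) to 78.2% (*Dsp*). In WT microglia *C1ql2* was at 142% on 10 UMIs. *C1ql3* was at 55.2% there, above 1 of the 8 markers. Nuclei were also gated each on its own marker UMIs, both genotypes pooled. Of the 1139 astrocytes or radial glia, 449 were gated to that class, 167 to GCs, 148 to other excitatory neurons, and 369 to none. Of 425 microglia 79 and of 815 oligodendrocytes 67 were gated to GCs, so these classes held nuclei with GC markers. RNA outside nuclei, read from barcodes with at most 100 UMIs, held *C1ql3* at 272 ± 19.8 CPM and *C1ql2* at 51.5 ± 12.7 CPM in WT libraries, which was 1.17 to 2.06 and 1.45 to 2.95 times the GC level of the same mouse. In GCs themselves, the estimated share of free RNA would give 5.63 CPM of *C1ql2*, and the measured mean was 4.23 times that.

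In V321L nuclei GCs stood apart from all other classes for both genes. *C1ql2* was at 330 ± 11.99 CPM in GCs, and the next classes were vascular cells at 94.6 ± 55.8, Cajal-Retzius cells at 90.9 ± 134, immature granule neurons at 76.5 ± 67.3 and OPCs at 69.3 ± 27.2. *C1ql3* was at 302 ± 41.7 CPM in GCs, followed by immature granule neurons at 138 ± 59.2 and OPCs at 98.1 ± 40.7. No mouse had a class above its GCs in either gene, and the other classes named here differed from their neighbours in the order by less than the larger SD. GC markers in V321L astrocytes or radial glia were at a median of 18.0% of their GC level.

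Outside the granule lineage, *C1ql3* and the GC markers did not always run together. In the WT cluster that carried markers of both mossy cells (3 of 9 highest there) and CA3 neurons (3 of 8), 31 *C1ql3* UMIs lay in 22 of 110 nuclei. Its pooled level was 38.4% of that in GCs, while all 8 GC markers were lower, from no UMI (*Prox1* and *Plk5*) to 10.6% (*Calb1*), and *C1ql2* had no UMI there either. CA1 neurons held *C1ql3* at 46.5 ± 54.7 CPM in WT and 30.6 ± 2.87 CPM in V321L mice, which pooled was 27.7% and 10.3% of its GC level. The 8 GC markers there were at 1.37% to 42.04% with a median of 11.99% in WT, and at 0.624% to 26.2% with a median of 2.42% in V321L mice, so that *C1ql3* was above 7 and 6 of the 8. In V321L OPCs *C1ql3* and *C1ql2* were at 30.2% and 19.8% of their GC level, beside 1.23% (*Trpc6*) to 20.5% (*Prox1*) for the 8 GC markers, with a median of 9.05%. In WT OPCs both genes were near the marker median of 24.7%, at 24.1% on 8 UMIs and 27.0% on 1 UMI. There *C1ql3* was above 4 of the 8 markers.

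Whether the *Nrg1* allele goes with a different level of these genes was asked first in GCs. *C1ql2* rose. Its level was 323.2 CPM in F1, 316.0 in F2, 337.4 in M1 and 341.7 in M2 of the V321L mice, on 1046 to 1776 UMIs per mouse, against 60 to 80 UMIs per WT mouse. The lowest V321L mouse lay far above the highest WT mouse. The log2 fold change was 3.42 (SE 0.18), a 10.7-fold rise (edgeR quasi-likelihood test, Benjamini-Hochberg adjusted p = 2.24e-08). This was 1 of the 2 members that passed the filter on low counts, in a comparison that called 70.4% of 12243 genes, 4737 higher and 3880 lower, so a call alone sets no gene apart. By size, 349 genes rose more than *C1ql2*.

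*C1ql3* in V321L GCs was at 261.4 CPM in F1, 302.3 in F2, 359.2 in M1 and 284.8 in M2, all above the 4 WT mice. After scaling by the trimmed mean of M-values (TMM) it did not pass the test, with a log2 fold change of 0.18 (SE 0.13; edgeR, Benjamini-Hochberg adjusted p = 0.229). With library sizes in place of TMM the change was 0.63 (edgeR, adjusted p = 0.00170) and passed. That scaling moved the median of all genes from 0.12 to 0.58 and the split of calls to 6724 higher and 2086 lower, 72% of genes in all. Relative to the median gene, *C1ql3* was thus near it under both scalings.

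The balance of the pair does not depend on scaling. *C1ql2* made up 10.1% of the *C1ql2* and *C1ql3* UMIs of GCs in WT F1, 9.03% in F2, 15.1% in M1 and 8.31% in M2, with a mean of 10.6% ± 3.07 (SD, n = 4). In V321L GCs it made up 55.3% in F1, 51.1% in F2, 48.4% in M1 and 54.5% in M2, with a mean of 52.3% ± 3.18. The groups did not overlap, and the difference was 41.7 percentage points (two-sided exact permutation test, p = 0.0286, the smallest that 4 against 4 mice can give). This measure was added after seeing the data and was not taken for other pairs of genes. In the fit of these GCs 70.4% of all genes were called. Free RNA showed a similar balance, at 15.8% ± 2.87 in WT and 63.8% ± 3.08 in V321L libraries. In astrocytes or radial glia, *C1ql2* was 10.5% of both genes' pooled UMIs in WT and 44.1% in V321L nuclei.

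**Figure D2:**
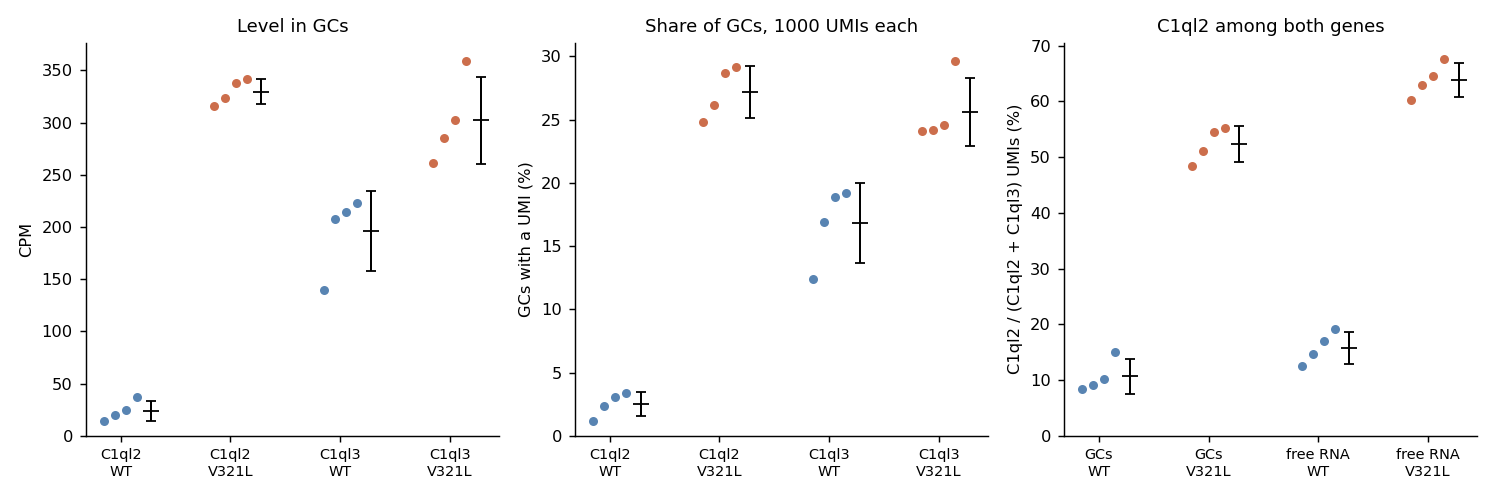
*C1ql2* and *C1ql3* in GCs by mouse: level in CPM (left), share of GCs with a UMI after thinning each nucleus to 1000 UMIs (middle, %), and *C1ql2* as a share of both genes' UMIs in GCs and in free RNA (right, %). Points are mice and bars the mean ± SD of 4, and *C1ql2* goes from 10.6% to 52.3% of the pair in GCs.

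More GCs held *C1ql2* as well. At full depth 4.15% ± 1.21 of WT GCs and 64.0% ± 7.59 of V321L GCs had a *C1ql2* UMI (256 and 2624 nuclei), beside 0.223% ± 0.279 and 4.73% ± 3.49 of CA3 neurons, whose median depth was higher (2603 and 5680.5 UMIs, against 1467 and 3822 in GCs). The WT share in GCs was close to the 3.41% ± 2.52 of WT astrocytes or radial glia at a median of 1166 UMIs. Thinned to 1000 UMIs per nucleus, which left 4683 WT and 4016 V321L GCs, the shares were 2.50% ± 0.972 and 27.2% ± 2.05 (two-sided exact permutation test, p = 0.0286, n = 4). *C1ql3* rose from 16.8% ± 3.15 to 25.6% ± 2.70 on the same nuclei (two-sided exact permutation test, p = 0.0286). At 500 UMIs the *C1ql3* difference was 3.84 percentage points and did not pass (two-sided exact permutation test, p = 0.0857).

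Both genes occurred in the same nuclei about as often as their shares alone give. In thinned V321L GCs 7.47% ± 1.28 held both, against a product of 6.999%, and in WT GCs 0.502% ± 0.282 against 0.440%. The *C1ql2* difference was present in each GC cluster that held over 50 nuclei of both genotypes. Pooled over mice, clusters 1 to 4 had 11.4 to 33.1 CPM in WT nuclei and 283 to 378 CPM in V321L nuclei. *C1ql3* had 166 to 226 CPM in WT and 262 to 299 CPM in V321L nuclei of these 4 clusters. In cluster 4 the 69 V321L nuclei held *C1ql2* UMIs from only 2 mice and *C1ql3* UMIs from 3.

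Free RNA outside nuclei differed between genotypes too, and not in the same way for both genes. *C1ql2* was at 221 ± 45.7 CPM in V321L against 51.5 ± 12.7 CPM in WT free RNA, while *C1ql3* was at 126 ± 31.6 against 272 ± 19.8 CPM. Relative to GCs of the same mouse, V321L free RNA held 0.530 to 0.900 times the *C1ql2* level and 0.305 to 0.514 times the *C1ql3* level. With the estimated free RNA subtracted from GCs, the log2 fold change was 3.76 for *C1ql2* and 0.38 for *C1ql3*, and the latter then passed the test (edgeR, Benjamini-Hochberg adjusted p = 0.0239).

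Gene span moved with the genotype difference over all genes. The median log2 fold change was 1.72 for the 2460 tested genes of up to 10 kb (79.8% higher), 0.33 for 5360 genes of 10 to 50 kb, -0.51 for 2911 genes of 50 to 200 kb and -1.02 for 839 longer genes (92.0% lower). *C1ql2* spans 2.593 kb (chr1:120340582-120343174) and *C1ql3* 8.978 kb (chr2:13001887-13010864), so both belong to the shortest class, in which 326 genes had a change at least as large as that of *C1ql2*. Of 87 genes taken as ribosomal protein genes by symbol, 80 were higher, with a median of 3.94. The match was *Rpl* or *Rps* and a digit, which can also take in S6 kinase genes. The part of gene span in the *C1ql2* difference was not tested.

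**Figure D3:**
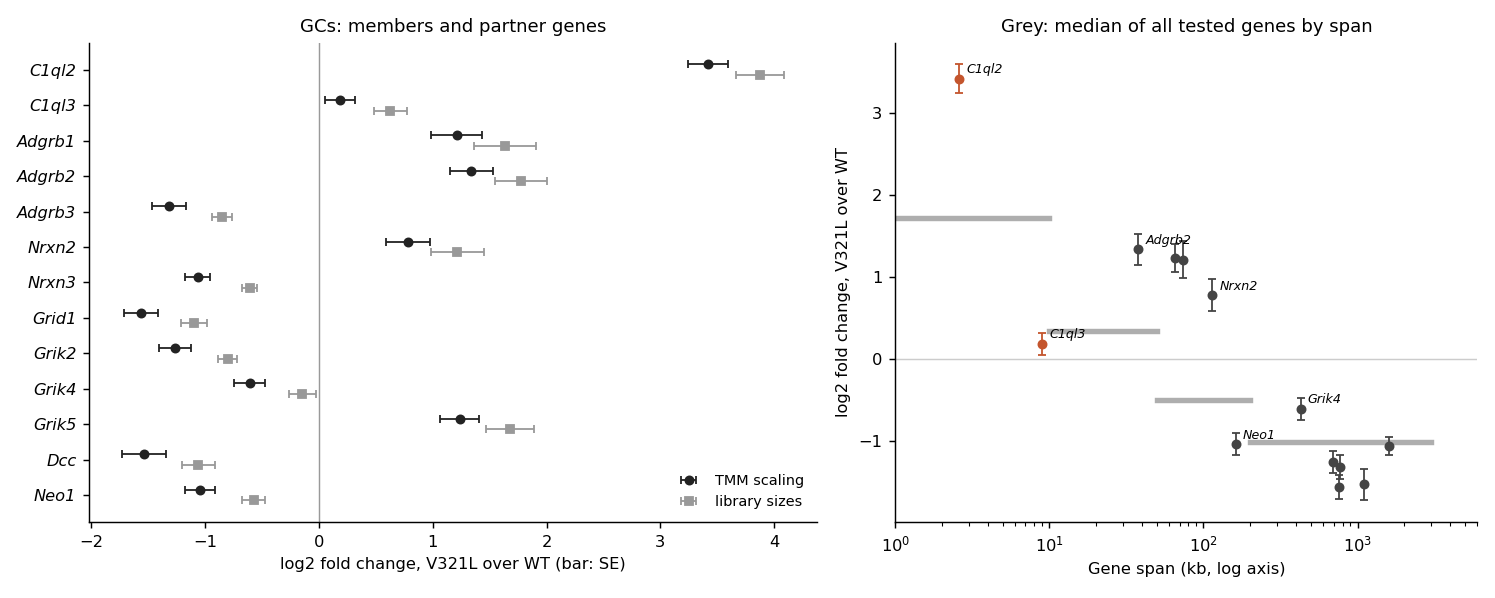
Log2 fold change (V321L over WT) in GCs with its SE (n = 4 mice per genotype). The left panel gives the 2 tested members and 11 partner genes under TMM (black) and library sizes (grey), and the right panel sets the TMM values against gene span (kb, log axis) with grey lines at the median of all tested genes by span. *C1ql2* at 3.42 is above the median of 1.72 of genes up to 10 kb and *C1ql3* at 0.18 is below it.

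The accessibility of the promoters, a readout that did not enter the choice of the genes, did not differ detectably between genotypes in GCs. At full depth the share of GCs with an ATAC count in a peak within 1 kb of the *C1ql2* start was 10.4% in F1, 5.35% in F2, 12.6% in M1 and 10.5% in M2 of the WT mice, and 8.48% in F1, 13.3% in F2, 22.9% in M1 and 7.21% in M2 of the V321L mice. The groups overlapped (two-sided exact permutation test, p = 0.543, n = 4). These shares ran with ATAC depth, since the median counts per GC were highest in V321L M1 at 13399 and lowest in WT F2 at 1976. Open is used below for a promoter with at least 1 such count in a nucleus. It is a rate of detection that depends on depth, and a nucleus without a count may be accessible there. Thinned to 1000 ATAC counts, the *C1ql2* promoter was open in 3.83% ± 0.463 of WT and 3.99% ± 0.709 of V321L GCs, a difference of 0.165 percentage points (two-sided exact permutation test, p = 0.571).

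The *C1ql3* promoter was open in 3.36% ± 0.246 and 3.61% ± 0.400 of thinned GCs (two-sided exact permutation test, p = 0.371). The near equal shares of the *C1ql2* and *C1ql3* promoters in WT GCs stand beside an RNA level that was far lower for *C1ql2*. The *C1ql3* counts came from peaks at least 141 bases outside its promoter window, so these shares measure unlike positions. *Cbln1* had hardly any RNA in GCs, but its promoter was open in 2.07% ± 0.344 and 2.36% ± 0.914 of them (two-sided exact permutation test, p = 0.686), and that of *Cbln2* in 0.724% ± 0.184 and 0.802% ± 0.544 (two-sided exact permutation test, p = 0.971). Peaks near the *C1ql1* start were called in only 4 libraries and near that of *Cbln4* in 2. The number of peaks counted for *Cbln2* differed between libraries. In V321L M1 it took in a peak at chr18:86712726-86713576, over 1 kb from the RefSeq start at chr18:86711061. In CA3 neurons the *C1ql2* promoter was open in 1.31% ± 1.103 of WT nuclei and in no V321L nucleus after thinning. In OPCs it was open in 3.22% ± 2.27 of WT and 4.94% ± 2.89 of V321L nuclei, near the GC shares, and in astrocytes or radial glia in 2.62% ± 0.630 of WT and no V321L nuclei. At full depth a count was found in 0.447% of V321L CA3 neurons and 0.563% of V321L astrocytes or radial glia. The WT shares were then 2.44% and 7.38%.

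**Figure D4:**
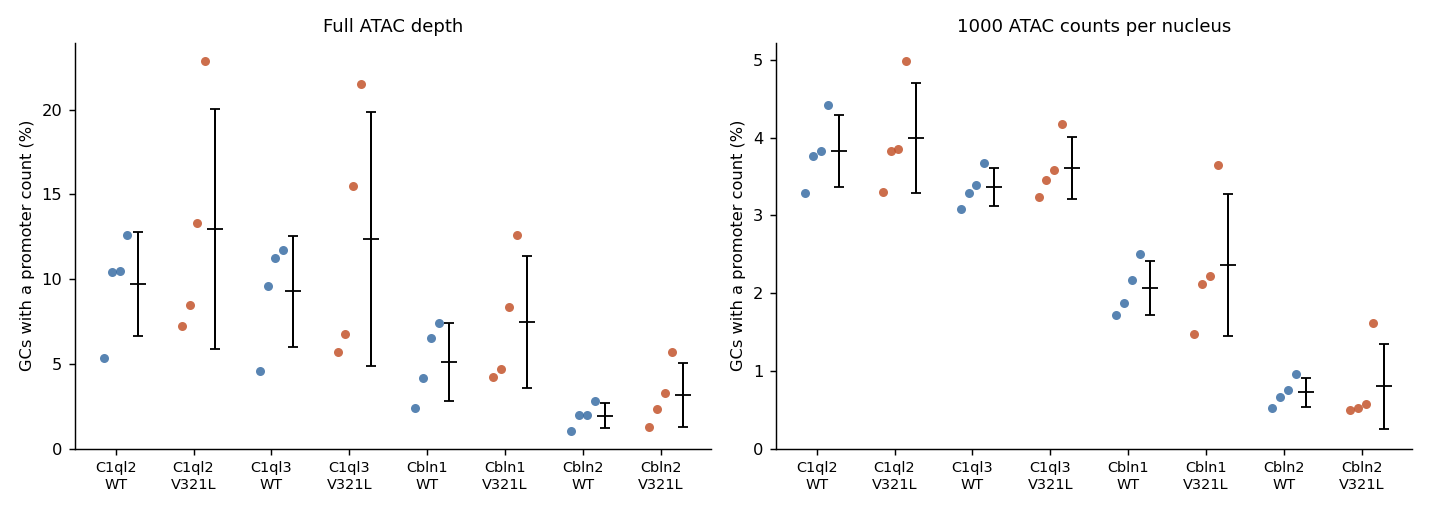
Share of GCs (%) with at least 1 ATAC count in a peak within 1 kb of the gene start, at full depth (left) and after thinning to 1000 ATAC counts per nucleus (right). For *Cbln2*, 1 peak of V321L M1 lay further away. Points are mice and bars the mean ± SD of 4, and the genotypes overlap for all 4 genes, with *C1ql2* at 3.83% and 3.99% after thinning.

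The allele was also compared in 6 other classes with at least 10 nuclei in every mouse. In 4 of them no member passed the filter on low counts, while the test called 53.2% of genes in oligodendrocytes, 36.7% in GABAergic neurons, 50.7% in microglia and 30.9% in CA1 neurons. In the other 2 classes 1 member each passed it and was called, *C1ql1* in OPCs and *C1ql3* in astrocytes or radial glia. Each passed through the genotype in which it was higher, since the level the filter asks of 4 mice, 159.6 CPM in OPCs and 43.4 CPM in astrocytes or radial glia, was reached by 0 WT and 4 V321L mice in the first class and by 4 WT and 1 V321L mice in the second. A gene admitted that way had to differ, so that these 2 calls are given as descriptions and are no support for a genotype difference.

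*C1ql1*, known for its role at climbing fibre synapses of the cerebellum, was the member of OPCs. Its level in WT OPCs was 23.4 CPM in F1, 16.8 in F2, 115.8 in M1 and 87.8 in M2, on only 1, 1, 2 and 5 UMIs in 133 nuclei. V321L OPCs had 411.0 CPM in F1, 429.5 in F2, 492.3 in M1 and 334.2 in M2, on 142 UMIs in 178 nuclei. The groups did not overlap, and the log2 fold change was 3.23 (SE 0.39), 9.40-fold. No p is given for this fit, which admitted the gene through V321L mice alone and called 25.6% of 1210 genes. Without the filter, an alternative added after seeing the data, the change was 3.11 (edgeR, adjusted p = 6.23e-10), where 5.64% of genes were called. With any 1 mouse left out the change was between 2.75 and 3.74.

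A *C1ql1* UMI was found in 7.12% ± 4.93 of WT and 53.7% ± 13.1 of V321L OPCs, beside 0.105% ± 0.211 and 0.780% ± 0.666 of astrocytes or radial glia. Median UMIs per OPC were 1090 in WT and 1892.5 in V321L nuclei. The gene did not pass the filter on low counts once OPCs were thinned or gated nucleus by nucleus, so its change was not tested there. Newly formed oligodendrocytes, the next stage of the lineage, held 8 *C1ql1* UMIs in 19 V321L nuclei and none in 11 WT nuclei. In GCs, 18 of 4135 V321L nuclei and no WT nucleus had a *C1ql1* UMI. That V321L level was 0.610 times what the free RNA estimated in GCs would give, since V321L free RNA held *C1ql1* at 14.7 ± 3.17 CPM.

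*C1ql3* was lower in V321L astrocytes or radial glia, on 33 UMIs against 170 in WT. The WT mice had 142.1 CPM in F1, 93.8 in F2, 306.1 in M1 and 165.3 in M2, and the V321L mice 30.3 in F1, 24.1 in F2, 18.8 in M1 and 83.0 in M2, without overlap. The log2 fold change was -2.17 (SE 0.46), in a comparison that called 53.8% of 4515 genes. No p is given for this fit, whose filter level was reached by 4 WT mice and 1 V321L mouse. Without the filter the change was -2.48 (edgeR, adjusted p = 5.56e-11), where 22.4% of genes were called. Relative to GCs, *C1ql3* in these nuclei went from 83.0% to 12.8% of its GC level. Of the 8 GC markers 7 were lower in V321L nuclei by the same measure, with a median that went from 58.6% to 18.0%, and *Plk5* was at 20.7% and 22.4%. *C1ql3* was above all 8 markers in WT nuclei and above 2 of the 8 in V321L nuclei. The part of GC RNA in the difference of *C1ql3* was not tested. The gene did not pass the filter after free RNA was subtracted. The share of free RNA in this class was estimated from *Dsp* alone. It ran from 9.03% to 67.1% in WT and from 0% to 94.1% in V321L mice. The lower level was not particular to this class. Pooled *C1ql3* was at 131 CPM in WT and 36.0 in V321L oligodendrocytes, and at 104 and 42.6 CPM in microglia. The median of the GC markers there went from 57.4% to 12.7% and from 73.4% to 16.6% of the GC level. In OPCs pooled *C1ql3* was higher in V321L nuclei, at 91.4 against 45.4 CPM.

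The cerebellins were low throughout. *Cbln4* lay mostly in GABAergic neurons (34 UMIs), and *Cbln2* in GABAergic neurons (47 UMIs) and in the class of other excitatory neurons (41 UMIs), and no member passed the filter in the 480 GABAergic nuclei. In GABAergic neurons *Cbln2*, whose protein also bridges neurexins and delta receptors at forebrain synapses, was at 23.7 CPM in F1, 39.6 in F2, 0 in M1 and 11.1 in M2 of the WT mice and 40.6, 22.7, 30.0 and 47.0 in the same order of the V321L mice. These groups overlap. All 47 *Cbln2* UMIs of this class fell in nuclei with more marker UMIs of the caudal (CGE) than of the medial (MGE) ganglionic eminence, in 30 of 290 such nuclei, and in 0 of 97 MGE nuclei, which allows a share with a UMI of up to 3.09% and sets no limit on the share that expresses the gene. These nuclei were pooled over mice and are not replicates. Of 27 nuclei with a UMI of *Vip*, a peptide of CGE interneurons, 12 held *Cbln2*. Of 69 nuclei with a UMI of *Lamp5*, another CGE marker, only 2 did, so the gene was not spread evenly over CGE nuclei. Of 51 nuclei with a UMI of *Sst*, from the MGE marker list, 2 held *Cbln2* as well, both from 1 mouse. By the split above these also had more CGE than MGE marker UMIs.

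*Cbln4* leaned the other way, on few nuclei. MGE nuclei held 23 UMIs in 8 of 97 nuclei (61.9 CPM) and CGE nuclei 5 UMIs in 5 of 290 (4.74 CPM), and 17 UMIs lay in 5 of 51 nuclei with a UMI of *Sst*, the peptide somatostatin. Nuclei with as many marker UMIs of MGE as of CGE held 6 UMIs in 4 of 93. Of the 23 UMIs in MGE nuclei, 13 were in 3 V321L nuclei. All 15 V321L UMIs of *Cbln4* in GABAergic neurons came from 1 mouse, F1. In other excitatory neurons *Cbln2* was at 14.0 ± 12.4 CPM in WT (2 UMIs, n = 3) and 52.5 ± 79.1 in V321L mice (39 UMIs, n = 4), above the 35.1 ± 10.8 of V321L GABAergic neurons but by less than its SD, and the V321L M2 value of 170.3 was 8 UMIs in 15 nuclei. Of the 39 V321L UMIs, 31 were in 26 of 90 V321L nuclei of cluster 15 from 3 mice, and none in the 47 WT nuclei of that cluster. *Cbln1*, the cerebellar granule cell member, had 5 UMIs in all named nuclei. Of the family members outside the 6, *C1ql4* had none and *Cbln3* had 4.

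GCs were also compared with nuclei divided by a UMI of *Sorcs3*, a sortilin receptor, or of *Penk*, the enkephalin precursor. The study reports both as markers of semilunar granule cells (SGCs), but identified SGCs by several markers together. A UMI of either gene alone thus does not divide SGCs from other GCs. *C1ql3* was lower in *Sorcs3*+ GCs by 0.25 on the log2 scale (SE 0.07; edgeR with mouse as a block, Benjamini-Hochberg adjusted p = 0.00294), where 12.6% of 11196 genes were called. WT means were 163 ± 24.7 CPM in 621 *Sorcs3*+ and 201 ± 41.7 in 5966 *Sorcs3*- GCs, and V321L means were 266 ± 19.0 in 499 and 307 ± 47.0 in 3636, with 7 of 8 mice lower in *Sorcs3*+ GCs. DESeq2 did not call it (adjusted p = 0.0543). *C1ql2* differed by 0.08 (edgeR, Benjamini-Hochberg adjusted p = 0.632).

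*C1ql2* was higher in *Penk*+ GCs by 0.42 (SE 0.14; edgeR with mouse as a block, Benjamini-Hochberg adjusted p = 0.0331), in a comparison that called 6.19% of 11051 genes. In V321L mice *Penk*+ GCs had 442 ± 25.6 CPM in 273 nuclei and *Penk*- GCs 321.3 ± 13.01 in 3862, higher in 4 of 4 mice. WT mice had only 71 *Penk*+ GCs with 6 *C1ql2* UMIs, at 31.6 ± 22.3 CPM against 23.6 ± 9.77. The call was lost when any of the 4 V321L mice was left out (adjusted p = 0.0838 to 0.203) and with DESeq2 (adjusted p = 0.0622), and within V321L mice alone it held (edgeR, adjusted p = 5.91e-05). *C1ql3* differed by -0.19 (edgeR, adjusted p = 0.529).

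No gene had a genotype difference that depended on sex in GCs (edgeR interaction, 0 of 13087 genes or 0%, with 363 at an unadjusted p under 0.05). For *C1ql2* the interaction was -0.23 (SE 0.35) and for *C1ql3* 0.13 (SE 0.28), both with a Benjamini-Hochberg adjusted p of 0.999. With 2 females and 2 males per genotype, these errors leave room for differences of that size.

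The receptors that C1q-like proteins and cerebellins bind were detected in GCs, which receive as well as send synapses. WT means of those reported ran from 37.4 ± 19.3 CPM (*Adgrb1*) to 3460 ± 208 CPM (*Grik2*). The 11 partner genes reported, of a longer list, were all tested and called in V321L against WT GCs, 4 higher and 7 lower, where 70.4% of all genes were called. Their median log2 fold change was -1.04 beside 0.12 over all genes, and with library sizes, on which 10 were called, it was -0.57 beside 0.58. The changes below are after TMM, and the CPM beside them are on library sizes, so that both do not give the same change. Among receptors of C1q-like proteins, *Adgrb3* fell by 1.32, from 3334 ± 313 to 1849 ± 174 CPM (edgeR, Benjamini-Hochberg adjusted p = 3.84e-06; -0.85 with library sizes), while its relatives *Adgrb1* and *Adgrb2* rose by 1.21 and 1.34. Of the kainate receptor subunits, *Grik2* fell by 1.26, *Grik4* by 0.61, and *Grik5* rose by 1.24. *Grik4* did not pass with library sizes (log2 fold change -0.15, edgeR adjusted p = 0.297).

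Among neurexins, the presynaptic receptors of both families, *Nrxn3* fell by 1.07, from 1951 ± 90.7 to 1280 ± 44.3 CPM (-0.61 with library sizes), and *Nrxn2* rose by 0.78. The delta receptor gene *Grid1* fell by 1.56, and the Cbln4 receptors *Dcc* and *Neo1* by 1.54 and 1.04. The 7 that fell span 162 kb or more, and the 4 that rose 114 kb or less, so direction followed gene span in this list. *Nrg1* itself fell by 1.14, from 797 ± 108 to 499 ± 88.3 CPM. The V321L allele changes a codon, and counts per gene do not show which allele was present.

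The genes most like each member across 13 of the 14 named classes were found by Pearson's r of log2(CPM + 1) of the WT class means, which share libraries and depth. For *C1ql2* they were *Glis3* (r = 0.936), *Dgkh* (0.927) and *Ahcyl2* (0.925), and for *C1ql3* *Calb1* (0.903), *Fat4* (0.899) and *Dgkh* (0.881). *Cbln2* was most like *Adra1b* (0.956), *Arhgef37* (0.934) and *Mccc1os* (0.889), and *Cbln4* most like *Gm14204* (0.934), *Pcp4l1* (0.918) and *Grip1os3* (0.911). The 3 genes nearest to *C1ql1*, *Gm21859*, *Gm40394* and *Gm12695*, had at most 33.3 CPM in any class, with r above 0.99. The genes nearest to *Cbln2* and *Cbln4* had at most 19.6 and 21.1 CPM, and the values of r for *C1ql1*, *Cbln1*, *Cbln2* and *Cbln4* all rest on few UMIs. The *C1ql2* values include its Cajal-Retzius mean of 1 UMI.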

How the data were processed

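The 8 RNA and 8 ATAC libraries were made with 10x Multiome kits from nuclei of frozen DG. The authors deposited raw counts (RNA UMIs per gene and ATAC counts in peaks called in each library) for all barcodes, without normalization, written by Cell Ranger ARC 2.0.2, per the file headers. The submitters' processing notes also name Cell Ranger, Seurat, Signac and mm10.

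Nuclei were barcodes with over 500 UMIs, over 250 genes and at least 500 ATAC counts, below the upper limits of the study for UMIs, genes and mitochondrial share. Scrublet (scanpy 1.11.5) scores above the library mean + 2 SD removed 609 of 17015 nuclei as doublets. Leiden clusters (leidenalg 0.10.2, resolution 1) were named from 16 marker lists, so a class name means nuclei like that class by its markers, and 3 single-nucleus clusters stayed unnamed. At most 13 kept barcodes were shared between any 2 libraries.

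UMIs were summed per mouse and class, since the mouse is the replicate, and tested in edgeR 4.0.16 (R 4.3.3) by its quasi-likelihood test (TMM, filterByExpr, Benjamini-Hochberg over all genes tested at 0.05), with DESeq2 1.42.0 as second tool. For shares per mouse an exact permutation test, two-sided, was used. Simulated data with known changes were used to check the fits. Barcodes of 100 UMIs or fewer gave the free RNA, whose share in GCs and immature granule neurons was estimated from markers of other classes. In all other classes this share was estimated from 1 GC marker, *Dsp*. Class levels were computed with Python 3.11.15 and scipy 1.17.1. Precision follows the UMIs behind each value, which are given beside the lowest ones.

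The genes named were the 6 members, *C1ql4* and *Cbln3*, a list of partner genes (11 reported, 2 further ones are not reported here), *Prox1*, *Sorcs3*, *Penk* and *Nrg1*, and the 3 genes most like each member among those with at least 10 CPM in a class. The members and lists were chosen with earlier results of these data known. GC markers, ribosomal protein genes and interneuron markers are named as measures beside a result. Alternatives changed scaling, tool, filters, depth, class definition, doublets, resolution, free RNA and the mice included. The replicate labels are shared by different mice of both genotypes and did not pair them.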

Additional observations from a re-analysis of the deposited data

Results flagged for a closer look

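In 3 of 46 groups of 4 mice 1 mouse stood apart from the others, and chance alone flags about 1 in 20 groups. *Cbln4* in V321L GABAergic neurons was at 60.9 CPM in F1 and at 0 in the other 3 mice. The *Cbln2* promoter was open in 1.62% of thinned GCs of 1 V321L mouse, and the next mouse had 0.575%. The number of peaks behind this share differed between libraries. *Grik4* in WT GCs was at 133 CPM in the lowest mouse, and the next had 181 CPM.

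*C1ql3* differed in opposite directions in GCs and in astrocytes or radial glia, and its pooled level was also lower in V321L oligodendrocytes and microglia. The V321L mean was 106 CPM above the WT mean in GCs and differed by -138 CPM in astrocytes or radial glia, in each case without overlap of mice. In GCs the difference did not pass the test after TMM (log2 fold change 0.18; edgeR, Benjamini-Hochberg adjusted p = 0.229), and in astrocytes or radial glia 7 of 8 GC markers were lower too, relative to GCs. The difference between these 2 effects was not tested. Free RNA, which no comparison of nuclei used as its readout, held 14.7 CPM of *C1ql1* and 221 CPM of *C1ql2* in V321L libraries, both above the WT libraries.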

How the results depend on the processing

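The rise of *C1ql2* in GCs kept direction and call under every alternative in which the gene was tested. The higher level of *C1ql1* in V321L OPCs kept its direction wherever the gene was tested. In the main fit *C1ql1* passed the filter through V321L mice alone, so its call stays a description and no support for a genotype difference. The number of members called in GCs went from 1 to 2 with library sizes, with free RNA subtracted (*C1ql3* in both cases) and without the filter on low counts (*C1ql1*, 19 UMIs). These fits called 72.0%, 67.25% and 41.0% of all genes, in the same order. In other classes it went from 2 to 0 after thinning or gating each nucleus, where neither gene passed the filter, and to 1 (*C1ql1*) with free RNA subtracted. It went to 5 without the filter, an alternative added after seeing the data, with *C1ql2* in OPCs and *C1ql3* in oligodendrocytes and microglia called in addition. On pooled levels *C1ql2* was higher in V321L OPCs, and *C1ql3* was lower in the other 2 classes. The fits without the filter called 5.64% of all genes in OPCs, 17.5% in oligodendrocytes, 13.8% in microglia and 22.4% in astrocytes or radial glia. Between *Sorcs3*+ and *Sorcs3*- GCs the number called went from 1 to 0 with DESeq2, in WT mice only and in V321L mice only. Between *Penk*+ and *Penk*- GCs it went from 1 to 0 with DESeq2 and in WT mice only. The main fits called 12.6% and 6.19% of all genes, in the same order, and the cause of these losses was not tested. Without the filter *C1ql3* was called between the *Penk* groups in place of *C1ql2*.

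The share of GCs with a *C1ql1* UMI differed by 0.117 percentage points at 1000 UMIs, by 0.127 at 500 UMIs and by 0.0204 with at least 2 UMIs required, and that of *C1ql3* by 3.84 at 500 UMIs, none past the test. The sex interaction changed sign for *C1ql2* after thinning (0.0658) and for *C1ql3* with library sizes (-0.0371).

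With 1 mouse left out the smallest possible p is 0.0571 (exact permutation test, 4 against 3), so no share can pass. The differences then ran from 0.313 to 0.477 (*C1ql1*), 57.4 to 62.9 (*C1ql2*) and 31.3 to 38.3 (*C1ql3*) for the share with a UMI, and from 40.7 to 43.2 for *C1ql2* among both genes, an alternative added after seeing the data. Promoter differences ran from -0.163 to 2.09 (*C1ql1*) and from -0.0557 to 5.16 (*C1ql2*), both negative without V321L M1. Calls in other classes ran from 2 to 3, in fits that called 21.7% to 63.5% of all genes by class and mouse left out. Between *Penk* groups they ran from 0 to 1, where the main fit called 6.19% of genes. *C1ql2* between *Sorcs3* groups ran from -0.0121 (without V321L M1) to 0.140.

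The replicate labels did not pair the mice: GC deviations of same-labelled mice correlated at -0.125 to 0.256 over 4 pairs. With the replicate block, the log2 fold change was 3.44 for *C1ql2* and 0.19 for *C1ql3* in GCs and 3.15 for *C1ql1* in OPCs. In GCs 1 member was called, where 67.4% of all genes were. Depth limits *Cbln1*, *Cbln2* and *Cbln4*, which passed the filter on low counts in no class tested.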
